A study of Mus musculus with 32 samples.

Results

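The comparison described here is between RNA pulled down with the ribosomes of cochlear supporting cells (IP) and RNA of the whole cochlea they were pulled from (input). It was taken from the Sox2 strain, which gave 14 of the 32 libraries of the series, 7 IP and 7 input. Each IP was set against the input of its own homogenate, so there were 7 pairs. All 43947 genes listed in the files of these libraries belong to the comparison, and 18560 of them reached 1 TPM in at least 2 libraries and were tested. TPM is a library's reads per gene, scaled by gene length and to the same total in each library.

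All mice were 10 weeks old and carried Sox2Cre/+;RiboTagHA/+ on a background named CBA, with a Cre of the CreERT2 kind, which acts once tamoxifen is given; its dosing is not given in the sources used here. The noise groups had been exposed to 105 dB SPL for 2 h, and their cochleae were taken 6 h later (2 homogenates, replicates 2 and 4) or 24 h later (3 homogenates, replicates 1, 2 and 3). The control group had no noise (2 homogenates, replicates 1 and 4). The number of animals in a homogenate is not stated either. For one comparison, 9 homogenates of the Prestin strain (PrestinCre/+;RiboTagHA/+, 18 libraries of the same age and noise) were used, in which the tag is meant for outer hair cells.

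RiboTag is an allele of Rpl22, a protein of the large ribosomal subunit, that gains an HA tag once Cre has acted. An HA antibody is then meant to bring down ribosomes, and the mRNA on them, from Cre-expressing cells. Supporting cells (Deiters, pillar, Hensen, border and phalangeal cells) surround the sensory hair cells, secrete the tectorial membrane, take up potassium and glutamate, and keep their fate through Notch signalling and the transcription factor Sox2. Sox2 is also made by glia, among them Schwann cells, satellite cells and oligodendrocyte precursors, all of which occur along the auditory nerve. An enrichment in bulk samples does not tell more cells of a type from more RNA per cell.

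Deposited values were compared as log2(TPM + 1), a scale that understates changes of low genes. The TPM had been made with each gene's genomic span, introns included, as its length: TPM times span gave whole numbers of reads (within 0.02) for 71.8% to 83.3% of the values under 300 reads, against 9.1% to 15.3% with the longest transcript as length. Levels are therefore compared within a gene and not between genes, and long genes stand low. Recovered depth was 27677256 to 36896144 reads in the IPs and 19513392 to 36703985 reads in the inputs. Libraries 6 h after noise listed fewer genes above 0 (16537 to 16813 in IPs, 15929 to 16966 in inputs) than all others, of which the lowest held 17395. Across genes, IPs correlated with each other at r from 0.811 to 0.899, inputs with each other at 0.892 to 0.958, and IPs with inputs at 0.793 to 0.895, ranges that overlap.

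More genes were higher than lower in the IPs. With the homogenate as a block, limma called 10067 genes higher in the IPs (54.2% of those tested) and 448 lower (2.41%, adjusted p under 0.05), and the median gene was higher by 0.65 on the log2 scale. Mitochondrially encoded RNA held 3.07% to 8.83% of IP TPM and 20.5% to 28.6% of input TPM, which leaves a larger share of the total for all other genes in an IP. Rescaling without mitochondrial genes moved the median gene only to 0.44, with 7392 genes higher and 873 lower of 18818 tested. What else moved the median gene was not tested. Scaling the libraries by their median ratios moved the median gene to 0.03, and the split to 3266 genes higher (17.6%) and 3216 lower (17.3%). All 3266 were also among the genes higher as deposited, while 904 genes that were higher as deposited were lower after scaling. On the recovered reads, limma-voom called 4800 genes higher (22.9%) and 2416 lower (11.5%) of 20988 tested. Counts of list members in IP against input are given below as deposited and after median-of-ratios scaling. The direction of a gene with a fold near that of the median gene depends on it. They are to be read beside the shares above for all genes tested. Summed TPM of a list are given as deposited only. Within single conditions, limma called no gene in the 2 control pairs (6885 at an unadjusted p under 0.05) or in the 2 pairs at 6 h (5110), and 9030 higher and 379 lower in the 3 pairs at 24 h.

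The markers of the labelled cells were high in the IPs. Sox2, the transcription factor whose locus drives the Cre (chr3:34650405-34652461, GRCm38), had 259, 320 and 654 TPM (lowest, median and highest) in IPs, against 32.5, 34.8 and 63.7 TPM in inputs. Its IP and input libraries did not overlap, and the log2 fold change was 3.21 ± 0.10 (SE, adjusted p = 6.38e-07, limma), or 2.30 after scaling. Fgfr3, the FGF receptor that marks Deiters and pillar cells (chr5:33721674-33737068), had 118, 157 and 223 TPM in IPs, against 13.7, 19.4 and 25.1 TPM in inputs, a log2 fold change of 3.01 ± 0.10. Otog, which encodes otogelin of the tectorial membrane (chr7:46240987-46311434), had 22.8, 33.3 and 77.3 TPM in IPs, against 3.56, 5.50 and 6.02 TPM in inputs, a log2 fold change of 2.77 ± 0.20. For all 3 markers, every IP lay above every input. Slc26a5, the outer hair cell motor protein prestin, had 0.533, 1.44 and 3.33 TPM in IPs, against 1.14, 1.95 and 2.29 TPM in inputs, and the groups overlapped (log2 fold change -0.19 ± 0.18, adjusted p = 0.411), with -0.72 (adjusted p = 0.00917) after scaling. Rpl22 itself, the tagged protein's gene, differed by 0.17 ± 0.13 (adjusted p = 0.285) as deposited and by -0.74 (adjusted p = 0.00203) after scaling, and its paralogue Rpl22l1 stood at 0.46 ± 0.19 (adjusted p = 0.0673).

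**Figure D1:**
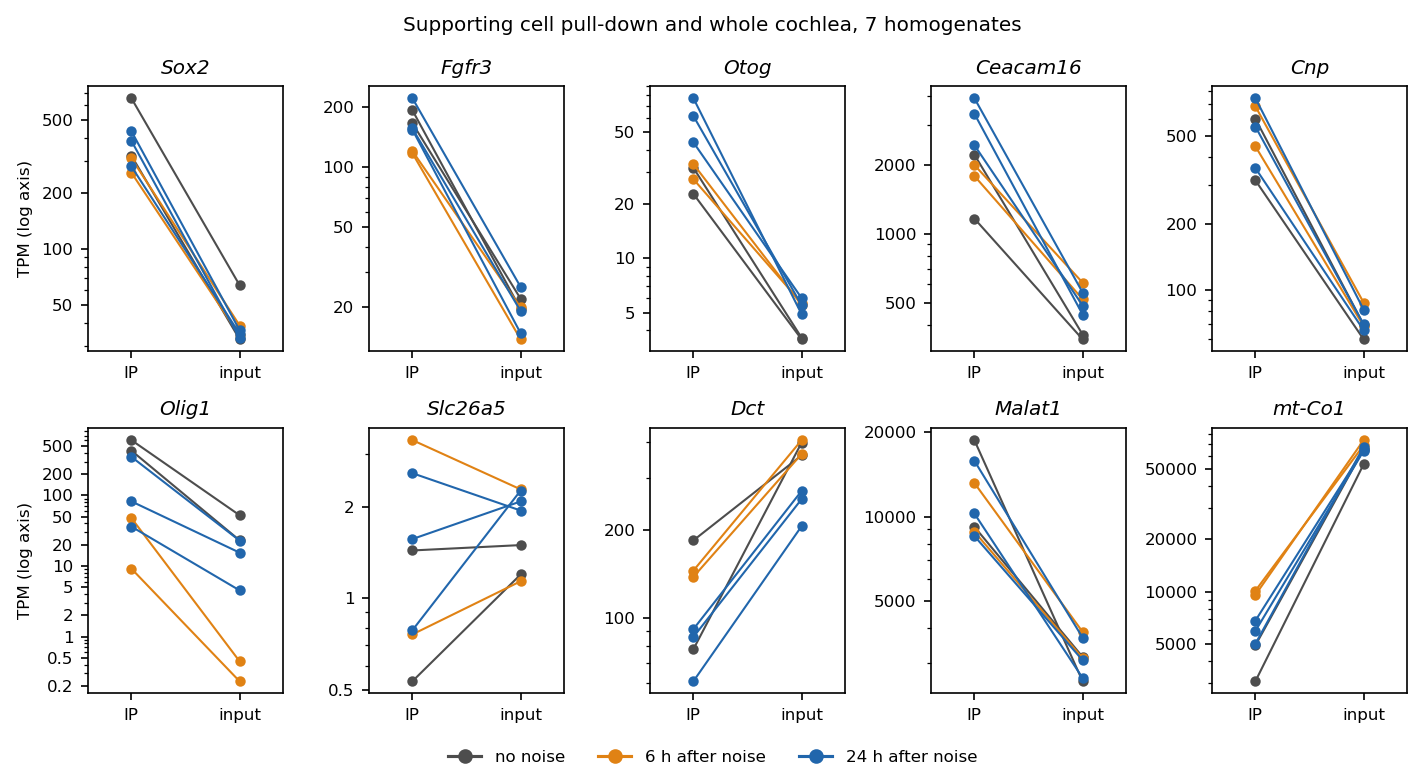
TPM (log axis) of 10 genes in the supporting cell IP (left) and the input of the same homogenate (right), joined by a line for each of the 7 homogenates and coloured by condition. Sox2, Fgfr3, Otog, Ceacam16, Cnp and Malat1 lie higher in every IP than in every input, Olig1 is higher in each IP than in its own input, Slc26a5 shows both directions, and Dct and mt-Co1 lie lower in every IP than in every input.

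Genes of supporting cell identity were higher in the IPs as a group. All 12 members were higher as deposited, with a median log2 fold change of 1.68 against 0.65 for all genes tested, and 9 were higher and 1 lower after scaling. Lfng, a glycosyltransferase that tunes Notch receptors, had 78.7, 94.4 and 133 TPM in IPs, against 2.62, 9.52 and 13 TPM in inputs (log2 fold change 3.31 ± 0.18, adjusted p = 4.16e-06). Cdkn1b, the cell cycle inhibitor p27 that keeps supporting cells out of division, rose by 1.58 ± 0.07 with no overlap between the groups. The Notch target Hes1 rose by 1.39 ± 0.08, and the glial glutamate transporter Slc1a3 rose by 0.99 ± 0.18 as deposited but by 0.10 (adjusted p = 0.69) after scaling. The member that fell after scaling was Sox9, a transcription factor of many cochlear cell types, at 0.38 as deposited and -0.53 after scaling. This list shares most of its members with lists described below. Jag1, Hes1, Hey1, Hey2 and Lfng are also Notch pathway genes, and Sox2, Sox9, Prox1 and Gata3 also otic transcription factors. Cdkn1b is also listed as a cell cycle brake and Slc1a3 as an uptake gene. Rises of these lists are therefore not separate results.

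Markers of Deiters and pillar cells rose in 8 of 10 cases as deposited (median 1.41), and 5 were higher and 3 lower after scaling. Slitrk6, a neuronal guidance receptor made by supporting cells, had 42.6, 76.4 and 106 TPM in IPs, against 4.49, 7.95 and 19.2 TPM in inputs (2.96 ± 0.31). Its enrichment was 1.67 and 1.97 in the homogenates 6 h after noise, against 3.82 and 2.56 in the controls. That change was not called (-1.37 ± 0.48, adjusted p = 0.369, limma). Tspan8, a tetraspanin, rose by 1.74 ± 0.11, and Bace2, a membrane protease, rose by 1.08 ± 0.10 as deposited, or 0.21 (adjusted p = 0.141) after scaling. The small heat shock protein gene Cryab was at 0.19 ± 0.14 and the neurotrophin receptor gene Ngfr at 0.06 ± 0.21, neither called as deposited, and both were lower after scaling (-0.72 and -0.79).

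The largest medians among the lists of supporting cell function were those of the tectorial membrane and otic matrix. All 8 members tested rose as deposited (median 2.20) and 7 rose after scaling, with none lower. Ceacam16, a secreted protein of the striated sheet of the tectorial membrane, had 1167, 2224 and 3933 TPM in IPs, against 345, 485 and 611 TPM in inputs (2.28 ± 0.18, adjusted p = 2.11e-05). The collagens of the same matrix rose too, Col9a1 by 2.52 ± 0.14 and Col11a2 by 2.11 ± 0.19, and their IPs and inputs did not overlap. Otoa, otoancorin of the limbal attachment zone, rose by 0.67 ± 0.12 as deposited, close to the median gene, and stood at -0.15 (adjusted p = 0.284) after scaling. Tecta, encoding alpha-tectorin, did not reach the filter, with a highest value of 0.833 TPM and 637 recovered reads over the 14 libraries.

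Genes of the sulcus, Hensen and Claudius cells, which lie beside the organ of Corti, were higher in 3 of 8 cases as deposited (median 0.49), and 2 were higher and 4 lower after scaling. Gata2, a zinc finger transcription factor, rose by 2.23 ± 0.10 and Epyc, a small proteoglycan, by 1.69 ± 0.10, each with no overlap between IPs and inputs. Bmp4, a secreted signal of the outer sulcus side, rose by 1.03 ± 0.12 as deposited, or 0.15 (adjusted p = 0.382) after scaling. The anion exchanger gene Slc26a4 (pendrin) had 37.7, 51.0 and 79.2 TPM in IPs, against 37.3, 49.5 and 56.0 TPM in inputs, and was not called as deposited (0.17 ± 0.10, adjusted p = 0.17), with -0.73 (adjusted p = 0.000535) after scaling.

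Of the genes for gap junctions and for potassium, water or glutamate uptake, 9 of 11 rose as deposited (median 0.88), and 4 were higher and 3 lower after scaling. The water channel Aqp4 had 31.8, 49.4 and 80.0 TPM in IPs, against 3.95, 7.65 and 15.6 TPM in inputs (2.46 ± 0.14). The connexin gene Gja1 rose by 2.31 ± 0.22, the potassium chloride cotransporter gene Slc12a7 by 1.77 ± 0.14 and the inward rectifier gene Kcnj16 by 1.64 ± 0.16. Gjb2 (connexin 26), which fibrocytes of the lateral wall also make, stood at 0.22 ± 0.13 and was not called (adjusted p = 0.199), with -0.70 after scaling. Aqp5, a water channel of outer sulcus root cells, was at -0.64 ± 0.25 (adjusted p = 0.0589) as deposited and was lower after scaling (-1.54, adjusted p = 0.00151).

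Notch pathway genes were higher in the IPs across ligands, modifiers and targets. All 18 genes rose as deposited (median 1.5), and 11 rose and none fell after scaling. Hey2, a target and repressor, had 22.9, 63.0 and 99.3 TPM in IPs, against 4.18, 4.96 and 11.9 TPM in inputs (3.15 ± 0.20), and the ligand Jag1, which supporting cells carry, had 20, 37.9 and 42.6 TPM in IPs, against 4.04, 4.55 and 7.99 TPM in inputs (2.44 ± 0.15). IPs and inputs did not overlap for either gene. The smallest enrichments included the glycosyltransferase Mfng at 0.74 ± 0.20 as deposited, or 0.20 (adjusted p = 0.45) after scaling. Notch3, which pericytes also make, is on this list as well as on that of pericytes.

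FGF receptors and the feedback inhibitors of FGF signalling rose in 10 of 11 cases as deposited (median 1.02), and 4 rose and 2 fell after scaling. The inhibitor Spry2 rose by 1.74 ± 0.10 and Spred1 by 1.02 ± 0.10, the second not called after scaling (0.16). Fgfr1, made by many cell types, had 31.8, 51.3 and 70.2 TPM in IPs, against 32, 41.9 and 50.9 TPM in inputs, and it was called in opposite directions, at 0.27 ± 0.07 as deposited and -0.63 after scaling. Fgfr2 shows what the span-based TPM hides: it held 87549 recovered reads over the 14 libraries but a highest value of 1.04 TPM, did not reach the filter, and on the reads differed by 0.25 (adjusted p = 0.0563, limma-voom).

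Of the transcription factors of otic development, 13 of 14 rose as deposited (median 1.01), and 6 rose and 2 fell after scaling. Isl1, a LIM homeodomain factor, rose by 1.72 ± 0.11, Gata3 by 1.54 ± 0.10 and Tbx2, which in hair cells sets the inner rather than the outer type, by 1.48 ± 0.09, all with no overlap between groups. Pax2 was low in all libraries (1.07, 1.21 and 2.30 TPM in IPs, against 1.21, 1.55 and 1.88 TPM in inputs) and was not called as deposited, but was lower after scaling (-0.63, adjusted p = 0.00332). Cell cycle brakes rose in 4 of 8 cases as deposited (median 0.30), against 54.2% of all genes tested, and in 2 after scaling, with 3 lower. Rb1, the retinoblastoma protein gene, rose by 1.24 ± 0.16. Cdkn1c (p57) stood at -0.32 ± 0.16 (adjusted p = 0.119) as deposited and was lower after scaling (-1.24, adjusted p = 0.000563). Of 12 proliferation genes, 5, among them Mki67 and Top2a, did not reach 1 TPM in at least 2 libraries, and 2 of the 7 tested rose, including Ccnd1 (cyclin D1) by 1.57 ± 0.14, and after scaling 1 rose and 2 fell.

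Glial genes were enriched beside those of supporting cells. All 16 genes for myelin proteins and myelin lipid enzymes rose as deposited, with a median of 2.28 that was above that of every supporting cell list, and 15 rose after scaling with none lower. Cnp, an enzyme of non-compact myelin, had 315, 552 and 743 TPM in IPs, against 59.8, 69.6 and 87.7 TPM in inputs (2.81 ± 0.11, adjusted p = 1.3e-06). The Schwann cell connexin gene Gjb1 rose by 2.64 ± 0.11 and the fatty acid hydroxylase gene Fa2h by 2.67 ± 0.14, and none of these 3 genes had overlapping groups. The smallest folds were those of Ncmap, 1.20 ± 0.14, and Drp2, 1.48 ± 0.17, both of Schwann cell myelin, and Ncmap was not called after scaling (0.36, adjusted p = 0.068). The summed TPM of the 16 genes ran from 3080 to 9409 in IPs, against 895 to 1370 in inputs, and none was at 0 in every IP.

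Regulators and markers of Schwann and satellite glia rose in 12 of 14 cases as deposited, with 1 lower (median 1.28), and after scaling 8 rose and 2 fell. Gfap, an intermediate filament of non-myelinating glia, had 13.9, 94.6 and 243 TPM in IPs, against 1.69, 7.75 and 24.8 TPM in inputs (3.15 ± 0.13). The groups overlapped, but every IP was above its own input, by 2.47 to 3.50. Egr2, the transcription factor of myelinating Schwann cells, rose by 2.60 ± 0.13, the fatty acid binding protein gene Fabp7 by 2.58 ± 0.19 and the neuregulin receptor gene Erbb3 by 1.92 ± 0.13. S100b, a calcium-binding protein of glia and of several cochlear cell types, went the other way, with 958, 1712 and 4641 TPM in IPs, against 1818, 2958 and 6009 TPM in inputs (-0.88 ± 0.15, adjusted p = 0.00114), lower in each of the 7 homogenates. The summed TPM of the list, which holds S100b, was 2115 to 5726 in IPs, against 2122 to 6385 in inputs, and higher in the IP of 1 homogenate.

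Oligodendrocyte genes rose in 7 of 8 cases as deposited (median 1.57) and in 4 after scaling. Olig1, a transcription factor of that lineage, had 430 and 605 TPM in control IPs, 9.17 and 47.8 TPM in IPs at 6 h, and 82.1, 351 and 36.1 TPM in IPs at 24 h. The inputs of the same homogenates had 23.0 and 52.1 TPM in controls, 0.232 and 0.445 TPM at 6 h, and 15.4, 22.8 and 4.50 TPM at 24 h. Both control IPs and both control inputs were among the highest of their kind and the inputs at 6 h were the lowest, while each IP lay above its own input (3.54 ± 0.31, adjusted p = 3.46e-05). Olig2, its paralogue, rose by 2.10 ± 0.36 and Aspa, an enzyme that releases acetate for myelin lipids, by 1.72 ± 0.23. Opalin, restricted to oligodendrocytes, was near 0 (at most 3.32 TPM) and not called. The summed TPM of the 8 genes ran from 20.1 to 781 in IPs, against 4.13 to 85 in inputs.

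Hair cell genes had medians close to that of all genes, of which 54.2% rose as deposited, and 17.6% rose and 17.3% fell after scaling. Of 10 outer hair cell genes tested, 5 rose as deposited (median 0.46), and 2 rose and 3 fell after scaling. Ikzf2 (helios), a transcription factor of outer hair cells, rose by 1.42 ± 0.14 at low levels (1.37, 3.11 and 4.11 TPM in IPs, against 0.127, 0.490 and 0.674 TPM in inputs). All its inputs lay under 1 TPM, so it reached the filter through its IPs only. Among general hair cell and hair bundle genes, 10 of 16 rose and 2 fell as deposited (median 0.69), and after scaling 3 rose and 3 fell. The bundle genes Ush1c (harmonin), Myo6 and Espn rose by 1.74 ± 0.13, 1.33 ± 0.10 and 1.08 ± 0.12, the last not called after scaling (0.29, adjusted p = 0.0778). The calcium buffers Pvalb and Calb2, abundant in hair cells and auditory neurons, fell by 1.09 and 0.76, and each was lower than its input in all 7 homogenates. Sums were taken as deposited only, where the median gene tested was higher in the IPs by 0.65 on the log2 scale. The summed TPM of the outer hair cell list was 154 to 193 in IPs, against 100 to 126 in inputs, and higher in the IP of all 7 homogenates. That of the hair cell and hair bundle list was 256 to 355 in IPs, against 221 to 384 in inputs, and higher in the IP of 2 homogenates.

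Neuronal genes rose in 7 of 16 cases as deposited (median 0.34), against 54.2% of all genes tested, and after scaling none rose and 3 fell. Map2, a dendritic microtubule protein, stood at 0.73 ± 0.11 as deposited (adjusted p = 0.000712) and -0.05 after scaling. Gap43, a growth cone protein, rose by 1.16 ± 0.27 as deposited and was not called after scaling (0.64, adjusted p = 0.0581). Its log2 differences between IP and input were 2.20 and 2.10 in controls and 0.36 to 1.35 after noise. The changes against control, -1.38 at 6 h and -1.40 at 24 h, were not called (adjusted p = 0.331 and 0.663, limma). The synaptic genes Snap25 and Slc17a7 (vesicular glutamate transporter of auditory neurons) stood at 0.00 ± 0.13 and -0.39 ± 0.19 and were not called as deposited, and both were lower after scaling (-0.90 and -1.30).

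The stria vascularis, melanocytes and fibrocytes of the lateral wall were the cell types with the most genes lower in the IPs as deposited. Of 9 genes of strial marginal and basal cells, 7 fell and 2 rose as deposited (median -0.38), and 7 fell and 1 rose after scaling. Kcne1, a potassium channel subunit of marginal cells, had 72.1, 99.4 and 103 TPM in IPs, against 137, 155 and 186 TPM in inputs (-0.77 ± 0.10), with no overlap. Cldn11, the tight junction claudin of basal cells, fell by 0.56. The exceptions were Bsnd (barttin, a chloride channel subunit), which rose by 1.86 ± 0.25, and the tight junction protein gene Tjp1, which rose by 0.92 ± 0.11 as deposited, or 0.15 (adjusted p = 0.288) after scaling.

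Of 9 melanocyte genes, 4 fell and 3 rose as deposited (median -0.35), and 6 fell and none rose after scaling. Dct, a melanin synthesis enzyme, had 60.6, 91.4 and 184 TPM in IPs, against 206, 360 and 406 TPM in inputs (-1.58 ± 0.14). Mlana, Slc45a2 and Gpnmb, all of melanosomes, fell by 2.28, 1.82 and 1.52. Mitf, the transcription factor of the lineage, rose by 0.78 ± 0.10 as deposited and was at 0.02 (adjusted p = 0.878) after scaling. Of 9 fibrocyte genes, 4 fell and 3 rose as deposited (median -0.22), and 7 fell and 1 rose after scaling. Otos (otospiralin) fell by 1.16, the carbonic anhydrase gene Car3 by 1.04 and the proteoglycan gene Dcn by 1.14, while Emilin2 rose by 1.51 ± 0.20. Lum, lumican of fibrous tissue, rose by 0.94 ± 0.13 as deposited, or 0.03 (adjusted p = 0.877) after scaling.

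Bone, vessel and blood genes gave mixed results. Of all genes tested, 54.2% rose and 2.41% fell as deposited, and 17.6% rose and 17.3% fell after scaling. Of 12 bone genes, 4 rose and 1 fell as deposited (median -0.06), and 1 rose and 4 fell after scaling; the collagen gene Col1a2 rose by 1.97 ± 0.15 and the osteoclast enzyme gene Acp5, at most 4.01 TPM in any library, fell by 0.99. Endothelial genes rose in 6 of 11 cases and fell in 1 as deposited (median 0.48), with 1 higher and 2 lower after scaling. Egfl7 rose by 1.73 ± 0.19, Emcn fell by 0.60, and Cldn5 was not called as deposited at 0.04 ± 0.12 and was lower after scaling (-0.88). Of 7 pericyte genes, 2 rose as deposited, including Pdgfrb by 0.96 ± 0.11, and none rose after scaling, with 3 lower.

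Macrophage genes did not rise in any case, and 2 of 10 fell as deposited (median -0.38), against 7 after scaling. The receptor gene Csf1r fell by 0.56 and the complement gene C1qb by 0.88. Neutrophil, B cell and erythroid lists had 1, 1 and 0 members higher as deposited and none lower, and after scaling 4 of 6 erythroid genes fell. Their list medians differed widely between homogenates, from -1.96 to 1.06 for neutrophils, with control replicate 1 the lowest in all 3 lists. Hbb-bs, a globin gene, had 185, 376 and 1097 TPM in IPs, against 470, 716 and 808 TPM in inputs, and S100a8, of neutrophils, had 0, 54.6 and 105 TPM in IPs, against 6.38, 49.2 and 101 TPM in inputs; IPs and inputs overlapped for each, and neither was called as deposited, while Hbb-bs was lower after scaling (-1.49, adjusted p = 0.00881).

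**Figure D2:**
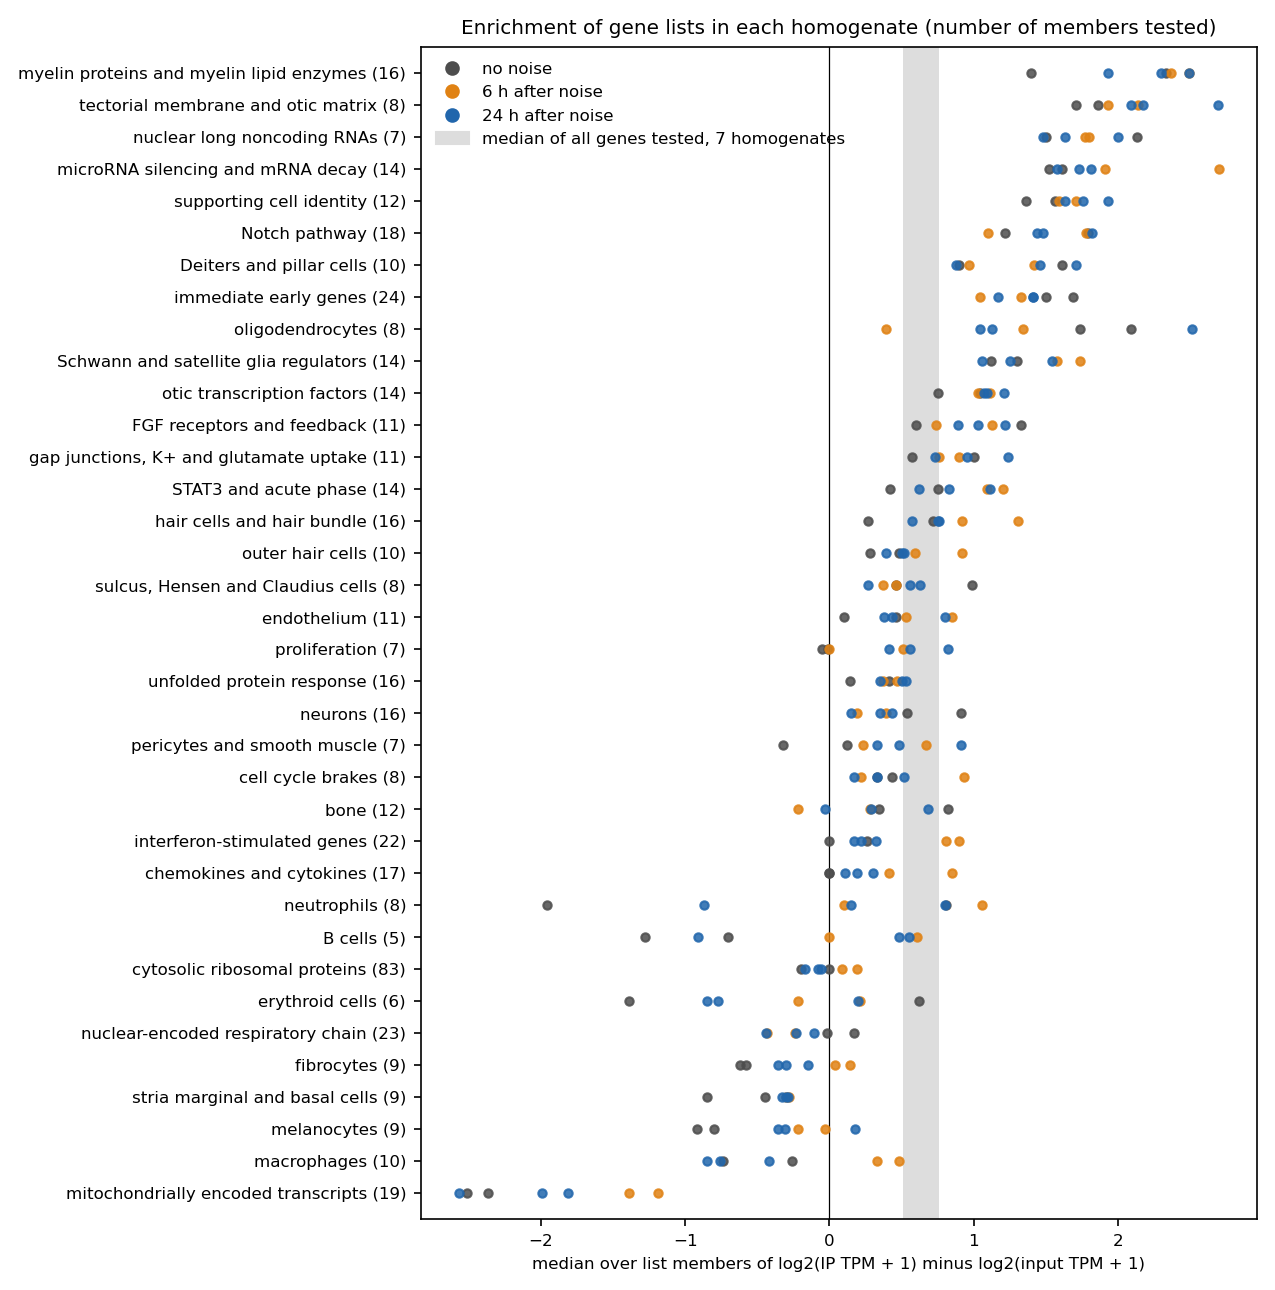
Median over the tested members of each gene list of log2(IP TPM + 1) minus log2(input TPM + 1), 1 point per homogenate coloured by condition, with the number of members in parentheses and a grey band for the median of all genes (0.51 to 0.76). Lists of myelin, tectorial membrane, nuclear long noncoding RNA, microRNA silencing, supporting cell identity and Notch lie right of the band in all 7 homogenates, and those of the stria, the respiratory chain and mitochondrially encoded transcripts lie left of it.

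Among classes of RNA, mitochondrially encoded transcripts stood lowest. Of 19 tested, 14 fell and none rose (median -2.35), and 15 fell after scaling. mt-Co1, a subunit of cytochrome oxidase, had 3067, 5951 and 10108 TPM in IPs, against 53607, 65486 and 73648 TPM in inputs (-3.43 ± 0.17, adjusted p = 3.07e-06), mt-Rnr2, the large mitochondrial rRNA, fell by 3.30, and mt-Cytb fell by 2.11. These RNAs are made and translated inside mitochondria, on ribosomes that hold no Rpl22. The IPs at 6 h held the most, 8.83% and 7.21% of TPM, against 3.07% and 4.35% in control IPs. Their inputs held 26.2% and 28.6% at 6 h, against 20.5% and 24.1% in controls. The tRNA gene mt-Tw differed by the most of the genes named here, -4.96 ± 0.87, with IP values from 0 to 149 TPM, against 152 to 910 TPM in inputs.

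Nuclear-encoded genes of the respiratory chain, which are translated in the cytosol, fell in 10 of 23 cases and rose in 4 as deposited (median -0.23), and after scaling 20 fell and none rose. Cox8a had 540, 712 and 861 TPM in IPs, against 787, 1005 and 1178 TPM in inputs (-0.57 ± 0.06, adjusted p = 8.84e-05), and Cox7b and Ndufa1 fell by 0.76 and 0.84. In all 7 homogenates each of the 3 was lower than its input. Of 83 cytosolic ribosomal protein genes, 21 fell and 13 rose as deposited (median -0.06), and 48 fell and 3 rose after scaling. Rps21 fell by 2.04, while Rps13 and Rpl9 rose by 2.43 ± 0.23 and 2.91 ± 0.32. Genes of this family have many near-identical pseudogenes between which reads can be split, so single members are uncertain.

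The genes listed as nuclear long noncoding RNAs were higher in the IPs. Snhg11, which is on this list, is annotated as protein-coding. All 7 tested rose as deposited (median 1.75) and after scaling. Malat1, of nuclear speckles, had 8533, 10267 and 18789 TPM in IPs, against 2577, 3117 and 3870 TPM in inputs (1.89 ± 0.17, adjusted p = 4.25e-05). Kcnq1ot1, an imprinted antisense transcript that stays on chromatin, rose by 3.63 ± 0.18, Snhg11 by 2.49 ± 0.20, Tug1 by 1.75 ± 0.13 and Neat1, the scaffold of paraspeckles, by 1.4 ± 0.14. By annotated type, small nucleolar RNAs had a median of 0.96 over 117 genes and transcripts inside introns on the sense strand 0.92 over 150. The annotation class TEC had 0.78 over 1086 and protein-coding genes 0.71 over 13753. Lower medians included those of long intergenic noncoding RNAs, 0.45 over 401, antisense transcripts, 0.31 over 588, and processed pseudogenes, 0.11 over 1712. Called higher were 15 small nucleolar, 37 sense intronic, 280 TEC and 9211 protein-coding genes. On the recovered reads, sense intronic transcripts stood at 1.39, small nucleolar RNAs at 1.33, TEC at 1.19 and protein-coding genes at 0.21.

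Genes of microRNA silencing and mRNA decay were higher as a group. All 14 tested rose as deposited (median 1.69), and 12 rose and 1 fell after scaling. The 3 GW182 proteins, scaffolds that bind Argonaute and recruit deadenylases, led the list. Tnrc6a had 191, 239 and 258 TPM in IPs, against 8.19, 9.31 and 11.2 TPM in inputs (4.47 ± 0.09, adjusted p = 3.04e-07), and Tnrc6b and Tnrc6c rose by 3.84 ± 0.08 and 3.63 ± 0.09. Dicer1, which cuts microRNA precursors in the cytoplasm, rose by 3.45 ± 0.09. Drosha, which cuts primary transcripts in the nucleus, rose by only 0.58 ± 0.10 as deposited and stood at -0.17 (adjusted p = 0.217) after scaling, and the deadenylase scaffold gene Cnot1 rose by 0.49 ± 0.10 as deposited and fell by 0.32 after scaling.

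Some of these genes were also among the largest rises. Among annotated genes that averaged 5 TPM or more in IPs and lay above the input in every homogenate, the largest rises included Hic2, Tnrc6a, Plagl2, Zcchc3, Mycn, H19, Zbtb34, Kmt5c, Tnrc6b, Lmbr1l and Trp53inp1, from 4.50 to 3.82 on the log2 scale. Hic2, a transcriptional repressor, had 36.9, 46.8 and 66.8 TPM in IPs, against 0.135, 1.39 and 1.84 TPM in inputs (4.50 ± 0.21), and Zcchc3, an RNA-binding protein gene, had 800, 872 and 994 TPM in IPs, against 37.4, 48.8 and 53.5 TPM in inputs (4.19 ± 0.09). Every IP was above every input for each of them except H19, an imprinted noncoding RNA with 164 to 1844 TPM in IPs, against 0.737 to 218 TPM in inputs. None of these is on a list of supporting cell genes. The 12 largest falls by the same rule were 6 protein-coding or rRNA genes of mitochondria, the tRNA gene mt-Tw, Mlana, Slc45a2, Rps21, Myadml2 and Wfdc18, the last with 13.4, 26.7 and 60.9 TPM in IPs, against 96.8, 127 and 142 TPM in inputs.

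The silencing machinery pairs a microRNA's seed, bases 2 to 8 from its 5′ end, with a match in the 3′ UTR of an mRNA, and seeds were therefore compared with the enrichment of the genes that hold a match. The mature sequences below (RefSeq, GRCm38.p6) are among those whose matches were linked to the highest enrichment as deposited, with the seed in capitals. Both let-7a and let-7g have the same seed.
mmu-let-7a-5p: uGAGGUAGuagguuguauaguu
mmu-let-7g-5p: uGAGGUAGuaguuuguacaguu
mmu-miR-29a-3p: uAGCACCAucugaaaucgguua
mmu-miR-30a-5p: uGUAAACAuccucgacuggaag
mmu-miR-26a-5p: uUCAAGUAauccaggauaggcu

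Matches were searched on the sense strand of 3′ UTRs of at least 50 bases, taken from the longest coding transcript in GENCODE M21, for 13501 protein-coding genes that were tested. The letters searched were CTACCTC for let-7, TGGTGCT for miR-29, TGTTTAC for miR-30 and TACTTGA for miR-26, and CTACCTC overlaps the match of miR-1839 (TCTACCT) by 6 letters. CTACCTC was present in the UTRs of 1415 genes (10.5%), TGGTGCT in 15.5%, TGTTTAC in 16% and TACTTGA in 11%. Because long UTRs hold more matches and the median enrichment was higher in long UTRs, 0.43 in the shortest of 10 length bands and 1.01 in the longest, each gene's fold was taken relative to the median of its band.

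Of 1383 seeds with a match in at least 100 genes, let-7 stood first, with a median of 0.232 above its length bands, followed by miR-29 at 0.173 and miR-30 at 0.134. The fourth, at 0.133, was miR-767, whose match ATGGTGC shares 6 letters with that of miR-29, and miR-26 came next at 0.123. From the 5th to the 95th percentile, the 1383 seeds ran from -0.037 to 0.047. On the recovered reads, let-7 and miR-29 stood first and second (0.301 and 0.204). In single homogenates, the let-7 value ran from 0.20 to 0.25, that of miR-29 from 0.13 to 0.18 and that of miR-30 from 0.10 to 0.15. These are descriptions of overlapping sets of genes and no test was made of them.

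Enrichment was higher where the UTR held more let-7 matches. The median log2 fold change was 0.68 in 12086 genes with no match, 1.04 in 1240 with 1, 1.30 in 150 with 2 and 2.07 in 25 with 3 or more. These values are not adjusted for UTR length, which differed with the number of matches, with medians of 1044, 2219, 3537 and 4453 bases. In each of the 10 length bands, genes with a match had the higher median, by 0.10 to 0.64 as deposited and by 0.21 to 0.80 on the reads. The 0.64 is that of the shortest band, which held 12 genes with a match, and the next was 0.50. The 0.10 is that of the longest band, which held 403 genes with a match, the most of any band. Of the 100 genes with the largest rise, 38.0% held a match, against 10.5% of all 13501 genes and 2.6% of the 500 with the largest fall, whose median UTR was shorter, 409 bases against 2033. The 9 homogenates of the Prestin strain gave let-7 values from 0.06 to 0.43, so the pattern was present in both pull-downs, with control replicate 1 of that strain at 0.06 and the other 8 at 0.29 or more.

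**Figure D3:**
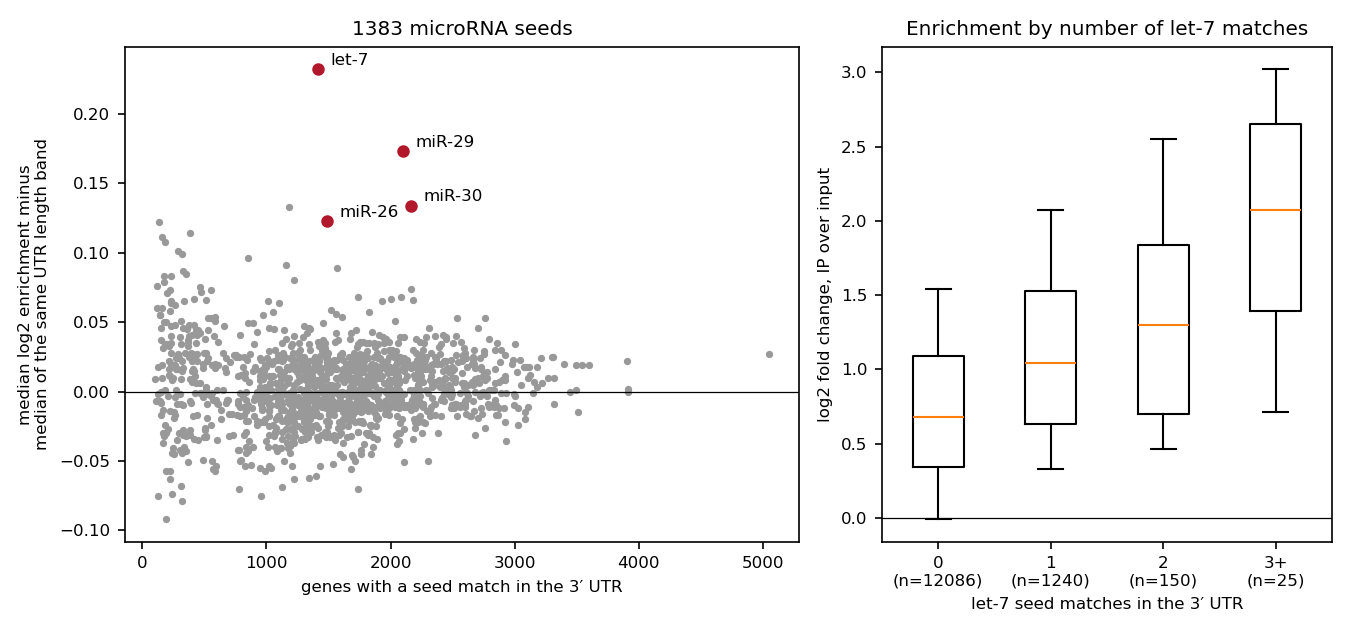
Left, for 1383 microRNA seeds, the number of genes with a match in the 3′ UTR and the median log2 enrichment of those genes relative to genes of the same UTR length band; let-7 (0.232), miR-29 (0.173), miR-30 (0.134) and miR-26 (0.123) are marked. Right, log2 fold change of IP over input by number of let-7 matches, with the median, quartiles and 10th to 90th percentile, where the median runs from 0.68 with no match to 2.07 with 3 or more.

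Of the 12 largest rises, 11 had an annotated 3′ UTR of at least 50 bases, and 4 of these held a let-7 match while the rest held none. The UTR of Hic2 held 4 let-7 matches, that of Zcchc3 2 and that of Plagl2 1. The first match of each of these 3 genes is shown with its surroundings (GRCm38, strand of the gene, match in capitals).
Hic2, chr16:17259372-17259401: ctggtgactattCTACCTCcctgggcccac
Plagl2, chr2:153229888-153229917: agaaacacacttCTACCTCtttactgttaa
Zcchc3, chr2:152413252-152413281: ctttttattttaCTACCTCcctcctcatac
Plagl2 is a zinc finger transcription factor and its IPs had 122, 154 and 241 TPM, against 6.28, 6.93 and 7.68 TPM in inputs. A match is a description of these letters and does not show that a microRNA was bound.

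The response lists differed. Immediate early genes were higher in the IPs, in control homogenates as well as after noise. Over all homogenates together, the medians of interferon, unfolded protein response and chemokine genes lay below that of all genes. At 6 h, however, the interferon list lay above all genes in both homogenates (0.90 and 0.81, against 0.51 and 0.64). The chemokine list did so in replicate 4 at 6 h (0.85 against 0.64) but not in replicate 2 (0.41 against 0.51). Of 24 immediate early genes, 21 rose as deposited (median 1.35), and 11 rose and 3 fell after scaling. Zfp36, which destabilises mRNAs with AU-rich elements, had 531, 608 and 1407 TPM in IPs, against 49.6, 59.7 and 142 TPM in inputs (3.40 ± 0.10, adjusted p = 4.67e-07). The anti-proliferative gene Btg2 rose by 3.47 ± 0.12, Ier2 by 3.26 ± 0.12 and the phosphatase gene Dusp1 by 2.42 ± 0.07, and none of these overlapped between groups. Maff, a small leucine zipper factor, was not called as deposited (-0.04 ± 0.20) and was lower after scaling (-0.83, adjusted p = 0.0156). List medians by homogenate ran from 1.04 to 1.69, with both control values, 1.5 and 1.69, the highest.

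Of 14 genes of the STAT3 and acute phase list, 10 rose as deposited (median 0.78), and 3 rose and 1 fell after scaling. Socs3, the feedback inhibitor of STAT3, rose by 2.71 ± 0.09. Interferon-stimulated genes rose in 9 of 22 cases and fell in 1 as deposited (median 0.28), and after scaling 1 rose and 9 fell; the antiviral gene Rsad2 rose by 1.81 ± 0.15 and the tetherin gene Bst2 fell by 0.41. In the unfolded protein response list, 12 of 16 genes rose as deposited (median 0.46), and none rose and 14 fell after scaling. The disulfide isomerase gene Pdia4 stood at 0.88 ± 0.13 as deposited and -0.03 (adjusted p = 0.889) after scaling, and the transcription factor gene Xbp1 at 0.08 ± 0.07 and -0.83. Of 17 chemokines and cytokines, 6 rose and 1 fell as deposited (median 0.08), and none rose and 2 fell after scaling.

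Enrichment was then compared between conditions, as the interaction of IP with time after noise. At 6 h against control, 3 of 18560 genes had a higher enrichment (0.0162%) and none a lower one, while 2236 genes had an unadjusted p under 0.05 (12%). At 24 h against control, none was higher and 2 were lower (0.0108%), with 1223 genes (6.59%) at an unadjusted p under 0.05. With 2 or 3 homogenates a group, these small counts do not show that enrichment was alike. No member of any list was called at either time. Leaving out replicate 2 at 6 h gave 24 genes higher and 20 lower at 6 h, while leaving out any other homogenate gave 0 or 1 in all.

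Clic3, a chloride intracellular channel gene, was the protein-coding gene called at 6 h. It had 25.4 and 23.8 TPM in IPs at 6 h, against 0.719 and 0 TPM in control IPs. The inputs had 11.3 and 7.55 TPM at 6 h, against 21.2 and 18.2 TPM in controls. Enrichment was 1.10 and 1.54 at 6 h, against -3.69 and -4.26 in controls, a change of 5.30 ± 0.33 (adjusted p = 0.041, limma), and on the reads the change of 7.30 ± 1.61 was not called (adjusted p = 0.114). The other genes called, named after their values were seen, were predicted or microRNA genes. Gm11821 and Gm16373 had changes of 5.13 ± 0.28 and 10.62 ± 0.73 at 6 h. At 24 h, the microRNA gene Mir1905 and the predicted gene Gm37979 changed by -8.83 ± 0.48 and -5.88 ± 0.35. Both were listed at 0 in every IP at 24 h and in all 4 libraries at 6 h. None of the 5 was called on the reads.

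On the recovered reads, 3 genes had a higher enrichment at 6 h (0.0143% of 20988) and 7 a lower one (0.0334%), and at 24 h none was higher and 2 were lower (0.00953%). These genes were chosen for description after their values were seen. Uchl1, a ubiquitin hydrolase of neurons, had a lower enrichment at both times. Its IPs had 177 and 184 TPM in controls, 26.6 and 45.8 TPM at 6 h and 55.2, 61.7 and 32.2 TPM at 24 h. Its inputs had 71.9 and 58.0 TPM in controls, 31.5 and 58.8 TPM at 6 h and 62.4, 96.5 and 58.6 TPM at 24 h. The IPs of controls were thus above all others, while the inputs overlapped between conditions. The change was -1.86 ± 0.28 at 6 h (adjusted p = 0.0352, limma-voom) and -2.11 ± 0.23 at 24 h (adjusted p = 0.00501).

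The other genes with a lower enrichment at 6 h were Rtn1 (-1.47 ± 0.18), Cpe (-2.63 ± 0.34), Bex2 (-3.06 ± 0.43), Syp (-1.46 ± 0.22) and Ndn (-1.97 ± 0.30), all known from neurons or neuroendocrine cells, and Lars2 (-1.69 ± 0.21), a mitochondrial leucyl-tRNA synthetase. Bex2 had 889 and 727 TPM in control IPs, 42.0 and 66.8 TPM in IPs at 6 h and 151, 216 and 91.3 TPM in IPs at 24 h, against inputs of 227 and 159 TPM in controls, 86.8 and 118 TPM at 6 h and 128, 168 and 124 TPM at 24 h. At 24 h, Ncdn (neurochondrin, of neurons) changed by -1.34 ± 0.15. Over the whole list of 16 neuronal genes, which holds Uchl1 and none of the others, the median change was -0.36 at 6 h and -0.41 at 24 h, and none was called as deposited. The summed TPM of that list, taken as deposited only, ran from 1298 to 2265 in IPs, against 716 to 1390 in inputs. The part of nerve tissue in these changes was not tested. The oligodendrocyte list median was highest in replicate 2 at 24 h (2.51) and in both controls (1.74 and 2.09).

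The genes with a higher enrichment at 6 h on the reads included Gjb2 and Ogn. Gjb2 had 2062 and 1701 TPM in IPs at 6 h, against 1265 and 1477 TPM in control IPs, and 1223 and 1095 TPM in inputs at 6 h, against 1473 and 1664 TPM in control inputs. Its change was 0.83 ± 0.12 (adjusted p = 0.0342), and no IP at 6 h overlapped the control IPs. Ogn, osteoglycin of connective tissue, changed by 1.84 ± 0.27, at enrichments of 0.65 and 0.47 at 6 h, against -1.04 and -1.57 in controls. List medians that were highest in both 6 h homogenates included those of macrophages, at 0.33 and 0.48 against -0.74 and -0.26 in controls, interferon-stimulated genes, at 0.90 and 0.81 against 0.00 and 0.26, and mitochondrially encoded transcripts, at -1.19 and -1.39 against -2.37 and -2.51.

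**Figure D4:**
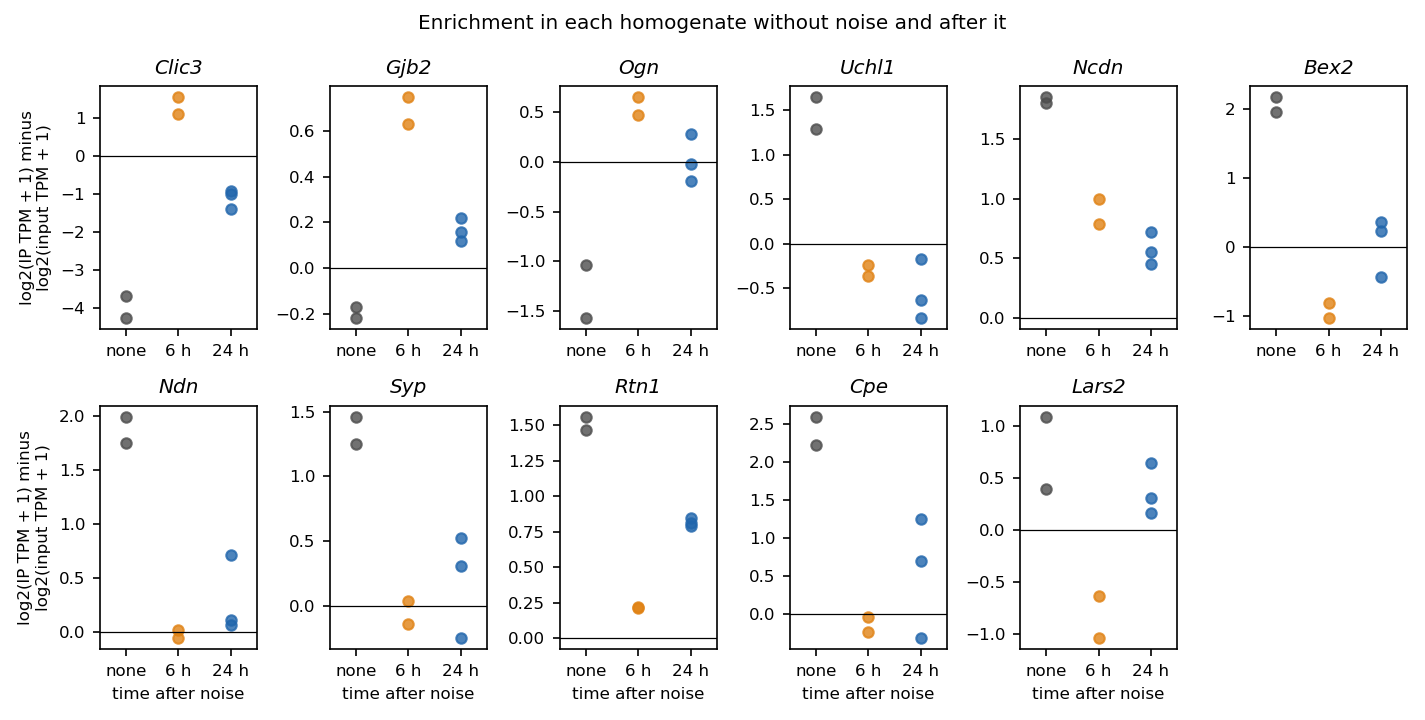
Log2(IP TPM + 1) minus log2(input TPM + 1) in each homogenate without noise (2), at 6 h (2) and at 24 h (3) for Clic3 and 10 genes called on the recovered reads. Clic3, Gjb2 and Ogn are highest at 6 h, and Uchl1, Ncdn, Bex2, Ndn, Syp, Rtn1 and Cpe are highest in both controls.

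The supporting cell enrichment was last set against that of the outer hair cell pull-down, over 16515 genes tested in all 32 libraries. Enrichment was higher in the Sox2 strain for 1356 genes (8.21%) and higher in the Prestin strain for 2078 (12.6%), with a median difference of -0.18. After median-of-ratios scaling the split was 1698 (10.3%) and 1047 (6.34%), and on the recovered reads 1841 (9.8%) and 1326 (7.06%). The side with more genes thus depended on the scale. Single genes and counts by list are given below as deposited only for this comparison. Sox2 itself had an enrichment of 3.21 in the supporting cell pull-down and 0.53 in that of outer hair cells (difference 2.68, adjusted p = 7.73e-09, limma). Otog stood at 2.77 and 0.59, Ceacam16 at 2.28 and -0.21, and Fgfr3 at 3.01 and 1.82, differences that were all called.

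Of the supporting cell identity list, 7 of 12 genes were more enriched in the Sox2 strain and none less, of Deiters and pillar cell genes 9 of 10 and none, and of tectorial membrane genes 4 of 8 and 2. Identity genes with no called difference included Lfng (3.31 in the Sox2 strain and 3.03 in the Prestin strain), Cdkn1b (1.58 and 1.84) and Hes1 (1.39 and 1.18). Col9a1 was more enriched in the Prestin strain (2.52 and 3.03), and Col11a2 (2.11 and 2.29) did not differ by a called amount. Of 14 otic transcription factors, 2 were more enriched in the Sox2 strain and 7 in the Prestin strain. Myelin genes were more enriched in the Sox2 strain in 12 of 16 cases, glial regulators in 8 of 13 and oligodendrocyte genes in 4 of 7, with none less enriched in these 3 lists. Cnp stood at 2.81 in the Sox2 strain and 0.13 in the Prestin strain, Gfap at 3.15 and -0.02, Fabp7 at 2.58 and -0.35, and Foxd3, a transcription factor of the neural crest and glia, at 3.57 and 0.25. Igfbp6, an IGF-binding protein gene that is on none of the lists, with 96.0, 277 and 583 TPM in IPs, against 21.4, 29.3 and 43.3 TPM in inputs, stood at 3.17 in the Sox2 strain and -1.11 in the Prestin strain.

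All 10 outer hair cell genes tested were more enriched in the Prestin strain. Slc26a5 stood at -0.19 in the Sox2 strain and 2.46 in the Prestin strain, Ocm (oncomodulin) at 0.29 and 3.42, Strc (stereocilin) at 0.38 and 3.27, and Chrna10, an acetylcholine receptor subunit, at 0.86 and 3.25. Of 18 Notch genes, 5 were more enriched in the Sox2 strain and 1 in the Prestin strain. Genes high in both included Tnrc6a, at 4.47 in the Sox2 strain and 5.24 in the Prestin strain (difference not called, adjusted p = 0.0927), Hic2 at 4.50 and 5.03, and Kcnq1ot1 at 3.63 and 4.8, the last a called difference. IP over input was higher in the Prestin strain for 5 of 9 strial genes, and in the Sox2 strain for 16 of 23 genes of the nuclear-encoded respiratory chain. In these lists higher can mean less depleted. Cox7b stood at -0.76 in the Sox2 strain and -1.40 in the Prestin strain, and Cldn11 at -0.56 and -0.16, while Tjp1 stood at 0.92 and 1.33.

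**Figure D5:**
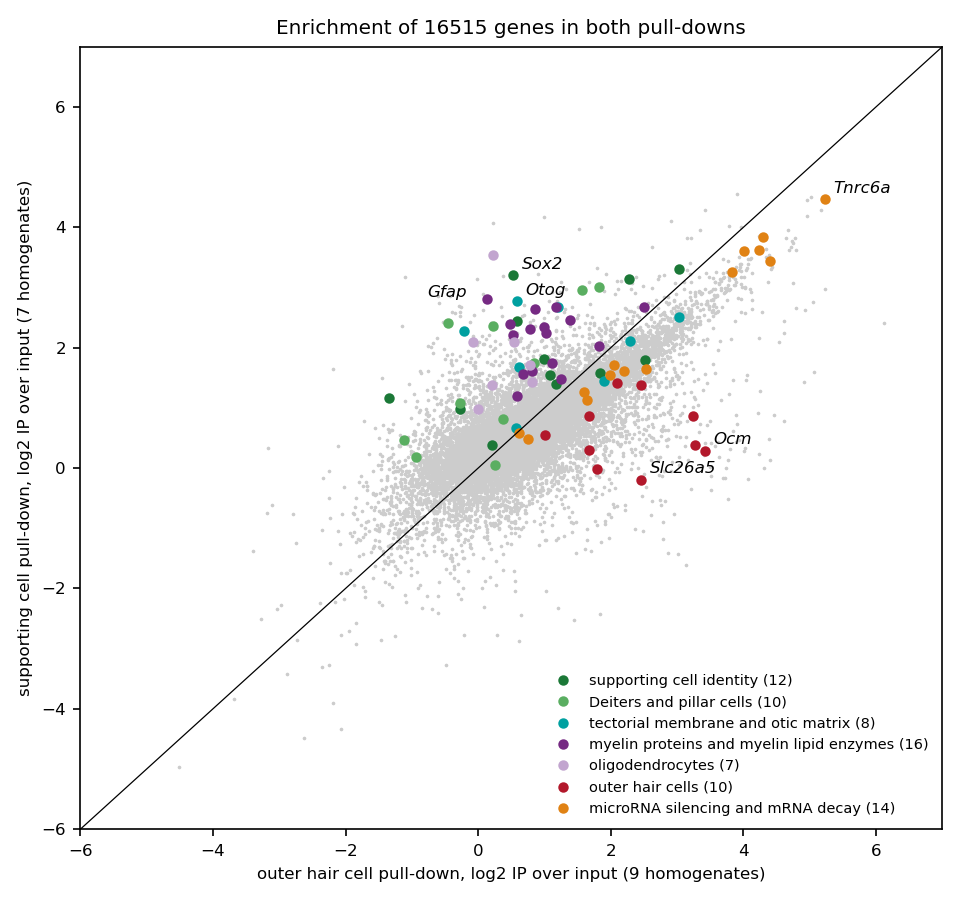
Log2 IP over input of 16515 genes in the supporting cell pull-down (7 homogenates, vertical axis) and the outer hair cell pull-down (9 homogenates, horizontal axis), with members of 7 lists in colour and the line of equal enrichment. Sox2, Otog and Gfap lie above the line, Slc26a5 and Ocm below it, and Tnrc6a is high in both (4.47 and 5.24).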

How the data were processed

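Processed values were used as deposited: 1 table of TPM per library, which the authors made, per the labels' protocols and the submitters' processing notes, from stranded libraries aligned with TopHat to GRCm38; no source used here names the counting tool. TPM do not depend on depth, but the deposited TPM times genomic span (GENCODE M21) gave whole reads, from which depth and reads were recovered. Only the columns of labelled libraries were used, and 0 other value columns occurred.

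Log2(TPM + 1) was fitted with limma 3.58.1 (R 4.3.3, intensity trend, Benjamini-Hochberg adjustment, threshold 0.05), with homogenate as a block, over all genes with at least 1 TPM in at least 2 libraries. Interactions with time after noise and with strain used the same model. Recovered reads (at least 10 in at least 2 libraries) were fitted with limma-voom, an alternative chosen after seeing the data. The IP and input of a condition and number come from 1 homogenate; deviations from group means correlated at r = 0.0455 to 0.171 between an IP and its own input. Replicates are labelled as biological, so p-values measure the spread between homogenates.

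The members and gene lists were chosen with earlier results of these data known. Genes were named by 1 rule: up to 12 largest rises and 12 largest falls per comparison with a mean of at least 5 TPM, leaving out predicted genes, pseudogenes and microRNA, small nucleolar and small nuclear RNA genes, and, of each list, up to 4 members with the smallest p and 2 with the lowest fold. A few genes that the rule names are not reported here. Scripts were tested on simulated data. Tables were handled with python 3.11.15, pandas 2.3.3, numpy 2.4.6 and matplotlib 3.10.9. Alternatives were median-of-ratios scaling, rescaling without mitochondrial genes, another pseudocount, other filters, no block, single conditions and the mean of the 3 conditions. Each homogenate of the Sox2 strain was also left out in turn, but none of the Prestin strain was.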

Additional observations from a re-analysis of the deposited data

Results flagged for a closer look

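Of 178 genes and list medians, 12 had 1 homogenate far from the other 6 (gap over range above Dixon's 95% critical value, which chance gives in about 1 of 20). Control replicate 1 was the lowest for S100b (-1.74), Myo6 (0.89), Car3 (-1.88), Emilin2 (0.28) and the strial list (median -0.85). Control replicate 4 was the lowest for Tspan8 (1.16) and for the list of otic transcription factors (0.75), and the highest for Snhg11 (3.70). Replicate 4 at 6 h was the highest for Lfng (4.46) and for the list of microRNA silencing (2.70), and the lowest for Ikzf2 (0.89). Replicate 2 at 6 h was the lowest for Chrna10 (-0.92).

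The interaction with time after noise picked out Clic3 (5.30), Gm11821 (5.13) and Gm16373 (10.62) at 6 h and Mir1905 (-8.83) and Gm37979 (-5.88) at 24 h, as log2 changes of enrichment against control.

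The difference of enrichments, Sox2 strain minus Prestin strain, picked out Igfbp6 (4.28), Foxd3 (3.32), Olig1 (3.32), Plbd1 (3.29), Gfap (3.17), Fabp7 (2.93), Sox2 (2.68), Cnp (2.68), Ceacam16 (2.49), Otog (2.18) and Fgfr3 (1.19) as higher in the Sox2 strain. It picked out Ocm (-3.13), Strc (-2.89), Slc26a5 (-2.65) and Chrna10 (-2.40) as higher in the Prestin strain.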

How the results depend on the processing

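Of 10067 genes higher and 448 lower in IPs than in inputs, median-of-ratios scaling gave 3266 and 3216, recovered reads 4800 and 2416, rescaling without mitochondrial genes 7392 and 873, and control or 6 h pairs alone 0 and 0. Leaving out 1 homogenate gave 9073 to 9949 higher and 351 to 461 lower. At 6 h against control (3 higher, 0 lower), recovered reads gave 3 and 7, a pseudocount of 0.1 gave 5 and 5, no filter gave 0 higher, and leaving out 1 homogenate gave 0 to 24 higher and 0 to 20 lower. At 24 h (0 higher, 2 lower), a pseudocount of 0.1 gave 1 lower, no filter and the filter of 7 libraries gave 0, and leaving out 1 homogenate gave 0 to 1 higher and 0 lower. Between strains (1356 higher in Sox2, 2078 higher in Prestin), recovered reads gave 1326 and median-of-ratios scaling 1047 higher in Prestin. Leaving out 1 of the 7 homogenates of the Sox2 strain gave 1175 to 1354 and 1503 to 2134. No homogenate of the Prestin strain was left out.

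Without the replicate block, that is without pairing an IP with its own input, 10217 genes were higher and 461 lower; the changes at 6 h numbered 24 higher and 26 lower and those at 24 h 3 higher and 6 lower.

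After median-of-ratios scaling, the log2 fold change turned, among genes called on either scale, for Rpl22 (-0.74), Sox9 (-0.53), Cryab (-0.72), Ngfr (-0.79), Otoa (-0.15), Slc26a4 (-0.73), Gjb2 (-0.70), Fgfr1 (-0.63), Map2 (-0.05), Snap25 (-0.90), Cldn5 (-0.88), Drosha (-0.17), Cnot1 (-0.32), Pdia4 (-0.03), Xbp1 (-0.83) and Ocm (-0.61). On recovered reads it turned, again among genes called on either scale, for Rpl22 (-0.55), Sox9 (-0.37), Cryab (-0.52), Ngfr (-0.67), Slc26a4 (-0.55), Gjb2 (-0.52), Fgfr1 (-0.46), Snap25 (-0.74), Cldn5 (-0.69), Drosha (-0.03), Cnot1 (-0.17) and Xbp1 (-0.65). Rescaling without mitochondrial genes turned Fgfr1 (-0.05) and Xbp1 (-0.24). Genes called on neither scale also changed sign, Strc under scaling (-0.27) and on reads (-0.35), and Ocm on reads (-0.39). The cause was not tested. Under the other alternatives, no named gene that was called changed its direction. Single conditions with 2 pairs have little power, and long genes lie under the TPM filter.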
